A study of Mus musculus with 74 samples.

Results

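Hox genes encode homeodomain transcription factors that give cells their position along the body axis, and 12 of the 39 Hox genes of the GENCODE M21 mouse annotation are described here from tables of PT (primary tumor) against Lung met (lung metastasis) expression. A gene was a member if its symbol was Hoxa, Hoxb, Hoxc or Hoxd followed only by a paralog number. That rule uses no measured value, but the members were chosen with earlier results of these data known. The members described are Hoxa2, Hoxa3, Hoxa4, Hoxa5 and Hoxa7 of the Hoxa cluster and Hoxb2 to Hoxb8 of the Hoxb cluster. Hoxc and Hoxd genes were not analysed here. Of these members, 10 had a row in the Her2 table of 18208 genes, 12 in the C3Tag table of 19321, 10 in the Myc table of 17905, 5 in the BALB table of 17363, 8 in the SEAGN table of 17404 and 8 in a table of 17945 genes deposited under the strain name AKR.

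All animals were female mice with autochthonous mammary tumors and carried a transgenic oncogene. FVB Her2 and FVB Myc mice carry the rat Neu (Her2) or the Myc oncogene under the MMTV promoter, which is active in mammary epithelium, and FVB C3Tag mice carry the SV40 large T antigen under the C3(1) promoter, all on the inbred FVB/N background. The PyMT-F1 mice were the daughters of FVB MMTV-PyMT males, which carry the polyoma middle T oncogene, and females of another inbred strain, here BALB or SEA/Gn (SEAGN), with a further table under the name AKR. The sample labels list 6 PTs and 6 Lung mets per model and 7 of each in C3Tag, 74 in all. Both tissues of a model therefore share the transgene and the strain and differ in site. In the driver models, mice with a lone tumor had it removed by surgery while small and were then aged, whereas the PyMT-F1 mice kept their tumors. Tissue of all PTs of a mouse was pooled, and Lung mets were used whole. The sample names gave the strain of each PyMT-F1 sample, and another label of some samples gave a different strain, so that the samples behind the BALB and SEAGN means are not certain. For C3Tag the labels and the study's own sample list give different numbers of PTs, and which of them entered the C3Tag mean is not known. The fold changes deposited in the AKR-named table match those that the study's supplement lists for its cross with BL6, another strain, so the values stand here under the AKR name alone and may be those of BL6 crosses and not of AKR crosses.

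Hox genes lie in clusters, and the order of the genes along the chromosome follows the order of the body regions in which they act, with low paralog numbers at the anterior end. Hox proteins bind DNA together with PBX and MEIS partners, Trithorax proteins keep active Hox genes on and Polycomb proteins keep silent ones off, and retinoic acid switches on the genes of the anterior end. Adult tissues keep a Hox pattern of their region, and Hoxa5 is known for its part in the mesenchyme of the developing lung. The Hoxa members lie on the minus strand of chromosome 6 and the Hoxb members on the plus strand of chromosome 11 (GRCm38). Hoxa5 (ENSMUSG00000038253) spans chr6:52201754-52204587 and Hoxb4 (ENSMUSG00000038692) spans chr11:96318267-96321638.

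RefSeq start sites with upstream sequence were at hand for 6 members, and the 150 bases before the start are shown for 4 of them. Hoxa5 was chosen because its mean was at least 2-fold higher in Lung met in all 4 tables with its means, Hoxa2 because it was higher in both of its tables, Hoxb4 because its direction differed between models, and Hoxb8 because it was lower in the only table that held it. The windows are chr6:52204588-52204737 (minus strand) for Hoxa5, chr6:52164832-52164981 (minus strand) for Hoxa2, chr11:96318117-96318266 (plus strand) for Hoxb4 and chr11:96281755-96281904 (plus strand) for Hoxb8, all in GRCm38.p6. None of these 4 windows overlapped an annotated exon. The Hoxa5 window lies between exons of the longer Hoxa3 gene model, and the Hoxa2 window between exons of the gene model Gm28308. Capitals mark matches on either strand to 4 motifs. These were the letters TATAAA of the core promoter element that bears the name TATA box, the letters AGGTCA of a half-site for retinoic acid receptors, the letters TGATNNAT bound by PBX with HOX proteins, and the letters CCAAT of the promoter element of that name.
Hoxa5: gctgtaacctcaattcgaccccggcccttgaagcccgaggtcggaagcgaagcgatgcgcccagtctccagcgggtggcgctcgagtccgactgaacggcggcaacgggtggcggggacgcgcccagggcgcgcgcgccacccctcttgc
Hoxa2: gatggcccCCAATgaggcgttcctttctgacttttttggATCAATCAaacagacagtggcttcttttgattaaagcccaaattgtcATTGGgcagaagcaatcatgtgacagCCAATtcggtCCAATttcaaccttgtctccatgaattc
Hoxb4: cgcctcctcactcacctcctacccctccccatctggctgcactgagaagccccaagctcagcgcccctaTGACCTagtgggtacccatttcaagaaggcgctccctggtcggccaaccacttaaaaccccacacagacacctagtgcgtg
Hoxb8: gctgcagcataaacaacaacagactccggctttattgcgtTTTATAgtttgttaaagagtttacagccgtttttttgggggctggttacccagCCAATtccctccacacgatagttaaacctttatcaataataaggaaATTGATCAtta
The Hoxa2 window held 4 CCAAT boxes, 142, 64, 38 and 28 bases before the start, and a PBX-HOX match 111 bases before it. The Hoxb8 window held a PBX-HOX match 11 bases, a CCAAT box 57 bases and a TATA box 110 bases before the start, with another TATA box farther up at 199 bases. The Hoxb4 window held an AGGTCA half-site 81 bases before the start, and the Hoxa5 window held none of these letters, with a CCAAT box farther up at 204 bases. None of these matches overlapped another. Over the 250 bases before each of 32851 mouse start sites, 33.8% held a CCAAT box, 14.0% the half-site, 12.4% the TATA box and 7.68% the PBX-HOX letters. Over the same 250 bases of the 6 members, 3 held a CCAAT box, 1 the half-site, 1 the TATA box and 2 the PBX-HOX letters. Hoxa3 and Hoxa7, whose windows are not shown, held none of these letters. The matches describe the sequence and show no binding.

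The values are the authors' means of normalized read counts per tissue, and no value of a single sample was analysed here. No error, interval or test could therefore be given for any difference, the sequencing depth behind each mean is unknown, and a gene is counted as higher or lower in Lung met by a ratio of at least 2-fold between both means (a log2 ratio of 1 or more in size). From the Myc table only the gene symbols were used, which show that 10 members had a row, Hoxa3, Hoxa4, Hoxa5, Hoxa7 and Hoxb2 to Hoxb7. Each table was normalized separately, so levels were compared within a table only. In bulk tissue, fewer cells of a type and less RNA per cell cannot be told apart.

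Of 42 log2 ratios over the members and the 5 tables with means, 22 were above 0 and 20 below, 10 were at least 2-fold higher in Lung met and 0 were at least 2-fold lower. Over all genes of a table, the share at least 2-fold higher ran from 2.26% in BALB to 7.42% in C3Tag. The share at least 2-fold lower ran from 1.43% in Her2 to 3.22% in SEAGN, so that 0 of 42 is near the background. Hoxa5, Hoxa3 and Hoxa2 were higher in every table that held them, Hoxb7 was lower in every such table, and 6 of the 10 members with means in 2 or more tables had both signs. The heat map of log2 ratios shows this division between the genes.

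**Figure D1:**
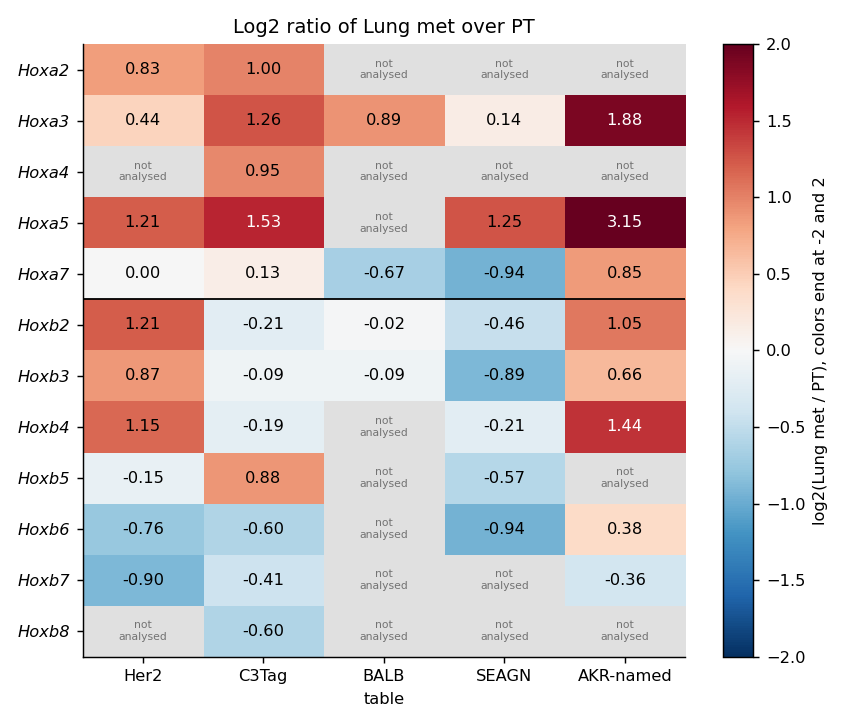
Log2 ratio of the authors' Lung met mean to the PT mean for the 12 Hox genes (rows, with a line between Hoxa and Hoxb) and the 5 tables with means (columns), with gray cells where no mean was analysed. Hoxa5 is red in all 4 of its cells, from 1.21 to 3.15, and Hoxb7 is blue in all 3 of its cells, from -0.90 to -0.36.

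In Her2, 3 of 10 members were at least 2-fold higher in Lung met, namely Hoxb2, Hoxa5 and Hoxb4, where 2.38% of all 18208 genes were. Of the 4464 genes with a mean over both tissues within the range of the members, a window set after the values were seen, 5.24% were. None of the 10 was at least 2-fold lower, where 1.43% of all genes and 3.14% of the genes in that range were. The median log2 ratio of the members was 0.64 and that of all genes 0.00. In C3Tag, 2 of 12 members were at least 2-fold higher, Hoxa5 and Hoxa3, where 7.42% of all genes and 10.7% of the genes in the members' range were. None of the 12 was at least 2-fold lower, where 1.7% and 2.6% were, and the median over the members was 0.02 against 0.01 over all genes. Hoxa2, at 0.996, and Hoxa4, at 0.95, lay just under the 2-fold line in C3Tag.

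In BALB, 0 of 4 members passed the 2-fold line in either direction, where 2.26% of all genes were higher and 2.4% lower, and 3.87% and 4.67% of the genes in the members' range. The BALB median was -0.06 over the members and 0.03 over all genes. In SEAGN, only Hoxa5 of 8 members was at least 2-fold higher, where 2.86% of all genes and 5.03% in the members' range were, and 0 of 8 were at least 2-fold lower, where 3.22% and 6.42% were. The SEAGN median over the members was -0.52, against 0.02 over all genes, with 6 of 8 members below 0. Under the AKR name, 4 of 8 members were at least 2-fold higher, Hoxa5, Hoxa3, Hoxb4 and Hoxb2, where 7.31% of all genes and 14.4% in the members' range were. None of those 8 was at least 2-fold lower, where 1.73% and 3.79% were, and the median was 0.95 against 0.01 over all genes. The 2 of 12 members in C3Tag and the 1 of 8 in SEAGN exceeded what the share in the members' range gives by less than 1 gene, which is near the background.

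Hoxa5, a factor needed for the normal growth of the lung and its airways, was at least 2-fold higher in Lung met in all 4 tables that held its means. Its normalized mean was 46.4 in PT and 107 in Lung met in Her2, a ratio of 2.31. In C3Tag it was 43.3 in PT and 125 in Lung met, a ratio of 2.88. In SEAGN it was 11.4 in PT and 27.2 in Lung met, a ratio of 2.39. The change in these 3 models thus spanned a narrow range, with log2 ratios of 1.21, 1.53 and 1.25. In the AKR-named table the mean went from 17.1 in PT to 152 in Lung met, a ratio of 8.91 and a log2 ratio of 3.15, the highest of the 42 values. Among all genes of a table the Hoxa5 ratio lay at the 98.3rd percentile in Her2, the 96.3rd in C3Tag, the 98.1st in SEAGN and the 99.4th in the AKR-named table. Hoxa5 shared no exonic base with another gene of GENCODE M21, but its span overlaps those of Hoxa3, Gm28308 and the antisense gene Hoxaas3. The gene models used for the counting are not settled, and whether neighboring genes added reads to Hoxa5 was not tested. The BALB mean of Hoxa5 was not analysed here.

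Hoxa3, which acts in the formation of the thymus and parathyroid, was higher in Lung met in all 5 tables, and past 2-fold in 2 of them. Its mean was 34.7 in PT and 47.1 in Lung met in Her2, a log2 ratio of 0.44. In C3Tag the PT mean was 157 and the Lung met mean 375, a log2 ratio of 1.26. In BALB it was 7.78 against 14.4, a log2 ratio of 0.89. SEAGN had the smallest change of the 5 tables, from 13.3 in PT to 14.6 in Lung met, a log2 ratio of 0.14. In the AKR-named table the mean was 7.30 in PT and 27.0 in Lung met, a log2 ratio of 1.88. Hoxa3 exons share 25.4% of their bases with antisense genes of the cluster, and whether the counting used strand is not given in the sources used here. They also share 8.01% with Gm28308 on the same strand.

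Hoxa2, a hindbrain and second-arch patterning gene, was analysed in 2 tables and was higher in Lung met in both. Its mean was 8.67 in PT and 15.4 in Lung met in Her2, and 74.6 in PT and 149 in Lung met in C3Tag. The log2 ratios were 0.83 and 1.00, at the 96.8th and 92.5th percentile of all genes. Hoxa2 exons share 15.0% of their bases with Gm28308 on the same strand. Hoxa4 was analysed in C3Tag alone and went from 37.0 in PT to 71.7 in Lung met. Its exons share 16.0% of their bases with an antisense gene.

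Hoxa7, with the highest paralog number of the Hoxa members, had a lower log2 ratio than Hoxa5 in each of the 4 tables that held both. In Her2 its means were 75.9 in PT and 75.8 in Lung met, a log2 ratio of -0.0013, and it had the highest PT level per kilobase of the 10 members. In C3Tag it was 14.0 in PT and 15.4 in Lung met. In BALB it was 4.90 in PT and 3.08 in Lung met, and in SEAGN 10.6 and 5.53, log2 ratios of -0.67 and -0.94. In the AKR-named table the Lung met mean was higher, 19.3 against 10.7, a log2 ratio of 0.85. The log2 ratio of Hoxa5 exceeded that of Hoxa7 by 1.21 in Her2, 1.39 in C3Tag, 2.19 in SEAGN and 2.31 in the AKR-named table. Genes some kilobases apart on the same strand therefore differed by more than 2-fold in their ratios in each of these tables. Hoxa7 exons share 20.4% of their bases with the antisense gene Hoxaas3.

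**Figure D2:**
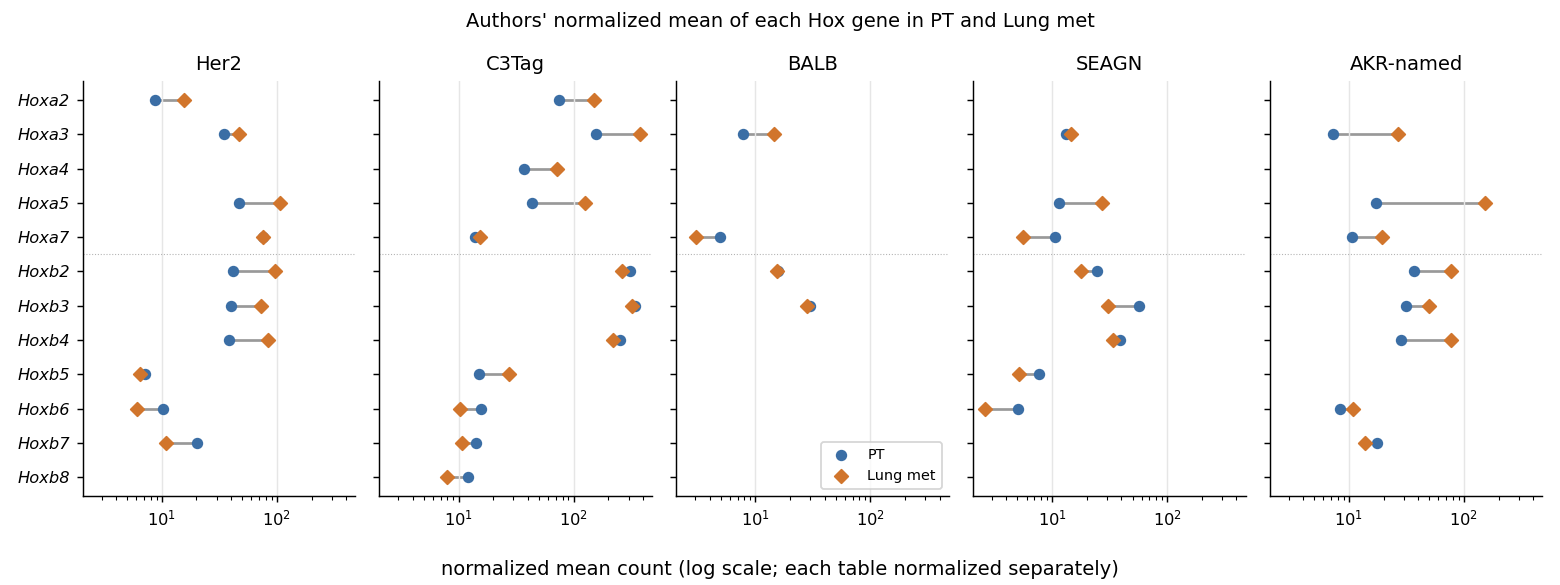
The authors' normalized mean of each Hox gene in PT (blue circles) and Lung met (orange diamonds), on a logarithmic horizontal axis with a panel for each table, with genes in rows and no point where no mean was analysed. The gray line joins both tissues, and it is longest for Hoxa5 in the AKR-named panel, from 17.1 to 152.

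Among the Hoxb members, Hoxb2, Hoxb3 and Hoxb4 had log2 ratios of the same sign within each table, and that sign differed between tables. Hoxb2, known from the hindbrain, had means of 41.2 in PT and 95.5 in Lung met in Her2, a log2 ratio of 1.21. In the AKR-named table it had 37.1 and 76.9, a log2 ratio of 1.05. In C3Tag it had 306 in PT and 265 in Lung met, in BALB 15.8 and 15.5, and in SEAGN 24.4 and 17.7, log2 ratios of -0.21, -0.02 and -0.46. Hoxb2 was therefore higher in Lung met in 2 tables and at or under its PT mean in the other 3.

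Hoxb4, which is known as a regulator of blood stem cells, had means of 38.1 in PT and 84.4 in Lung met in Her2, and 28.2 and 76.6 in the AKR-named table, log2 ratios of 1.15 and 1.44. In C3Tag it had 250.3 in PT and 219 in Lung met, and in SEAGN 39.0 and 33.7, log2 ratios of -0.19 and -0.21. Hoxb4 shared no exonic base with another annotated gene. Hoxb3 had means of 40.2 in PT and 73.3 in Lung met in Her2 and of 31.5 and 49.6 in the AKR-named table, log2 ratios of 0.87 and 0.66. In C3Tag it had 340 in PT and 319 in Lung met, in BALB 30.0 and 28.1, and in SEAGN 56.8 and 30.6. The SEAGN log2 ratio of Hoxb3, -0.89, was the lowest of these 3 genes in any table, and at the 4.10th percentile of all genes. Hoxb2 and Hoxb3 share 27.3% and 52.9% of their exonic bases with the antisense gene Hoxb3os.

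The Hoxb members of higher paralog number, Hoxb5 to Hoxb8, were mostly lower in Lung met. Posterior Hox genes, of paralogs 9 to 13, were not analysed here. Hoxb7, which is often raised in breast cancer, had means of 20.3 in PT and 10.9 in Lung met in Her2. Its C3Tag means were 14.2 and 10.7, and those under the AKR name were 17.7 and 13.7. Its log2 ratios were -0.90, -0.41 and -0.36, and the Her2 value lay at the 1.66th percentile of all genes. Hoxb6 had means of 10.2 in PT and 6.05 in Lung met in Her2, a log2 ratio of -0.76, and was lower also in C3Tag (15.6 and 10.3) and SEAGN (5.04 and 2.62), with log2 ratios of -0.60 and -0.94. In the AKR-named table Hoxb6 was higher in Lung met, 10.9 against 8.39, a log2 ratio of 0.38. Hoxb8 had a mean of 12.1 in PT and 7.98 in Lung met in C3Tag, a log2 ratio of -0.60. Hoxb5, which acts in the developing gut and lung, had 7.14 in PT and 6.43 in Lung met in Her2, 7.67 and 5.16 in SEAGN, and 15.0 and 27.5 in C3Tag, where its log2 ratio of 0.88 was the only one above 0 among the 7 Hoxb members. Hoxb5, Hoxb6, Hoxb7 and Hoxb8 all had low means, at most 20.3 in PT in any table.

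By cluster, the 4 Hoxa members of Her2 had a median log2 ratio of 0.64 and its 6 Hoxb members 0.36. In C3Tag the medians were 1.00 over 5 Hoxa members, all above 0, and -0.21 over 7 Hoxb members, of which 1 was above 0. In SEAGN they were 0.14 over 3 Hoxa members and -0.57 over 5 Hoxb members, none of them above 0. In BALB they were 0.11 and -0.06, over 2 members each, and under the AKR name 1.88 over 3 Hoxa and 0.66 over 5 Hoxb members. The Hoxa median was thus above the Hoxb median in all 5 tables, over gene sets that differed between the tables. In Her2 this order turned when members with a mean under 10 were left out, since the Hoxb median was then 1.01 and the Hoxa median still 0.64. Summed over members, the Hoxa means went from 326 in PT to 736 in Lung met in C3Tag while the Hoxb means went from 953 to 860. In SEAGN the Hoxa sum went from 35.3 to 47.4 and the Hoxb sum from 133 to 89.7, and in Her2 both sums were higher in Lung met, 246 against 166 and 276 against 157.

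Paralogs of the same number in both clusters are the closest relatives among Hox genes, and 14 such pairs could be compared within a table. The Hoxa gene had the higher log2 ratio in 12 of them, and the exceptions were Hoxa2 against Hoxb2 and Hoxa3 against Hoxb3 in Her2, with differences of -0.38 and -0.43. For the Hoxa3 and Hoxb3 pair, the difference of the log2 ratios was 1.35 in C3Tag, 0.99 in BALB, 1.04 in SEAGN and 1.23 in the AKR-named table. For Hoxa5 and Hoxb5 it was 1.36 in Her2, 0.65 in C3Tag and 1.83 in SEAGN. For Hoxa7 and Hoxb7 it was 0.90 in Her2, 0.54 in C3Tag and 1.21 in the AKR-named table. The 14 pairs use some of the same samples, and no test of their count was made.

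**Figure D3:**
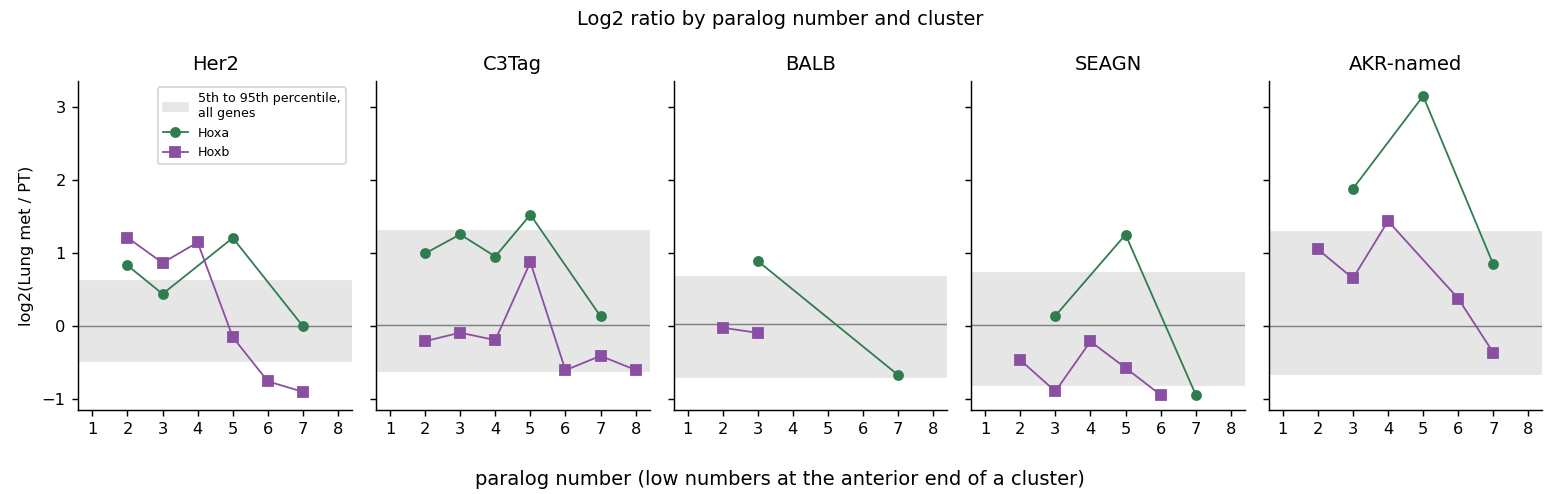
Log2 ratio of Lung met over PT against the paralog number, with a panel for each table, Hoxa as green circles and Hoxb as purple squares, and the gray band for the 5th to 95th percentile of all genes of the table. The Hoxb line drops towards high paralog numbers in the Her2 panel, from 1.21 at Hoxb2 to -0.90 at Hoxb7, and the Hoxa line peaks at Hoxa5 in the 4 panels that hold it.

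Along the Hoxb cluster the ratio mostly declined with the paralog number. Spearman's rho between the log2 ratio and the paralog number was -0.94 over 6 genes in Her2, -0.57 over 7 in C3Tag, -0.50 over 5 in SEAGN and -0.70 over 5 in the AKR-named table. For Hoxa it was -0.40 over 4 genes in Her2 and -0.30 over 5 in C3Tag. These points share a chromosome, a table and its samples, and rho describes them only. The log2 ratio of Hoxb2 exceeded that of Hoxb6 by 1.97 in Her2, 0.40 in C3Tag, 0.48 in SEAGN and 0.68 in the AKR-named table. Grouped by class, the anterior members (here paralogs 2 and 3) had a median log2 ratio of 0.85 in Her2 and the central members (paralogs 4 to 8) -0.08. In C3Tag these medians were 0.45 and -0.03, in SEAGN -0.46 and -0.57, and under the AKR name 1.05 and 0.85. Without members of a mean under 10, the central medians were 0.57 in Her2, 0.52 in SEAGN and 1.14 under the AKR name, while the anterior medians kept their values, so that the central median was then the higher one in SEAGN and the AKR-named table.

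Levels of different genes were compared per kilobase of merged exons. The Hox genes stood low among all genes in every table, with PT percentiles per kilobase from 3.24 to 25.8 in Her2, from 5.04 to 48.9 in C3Tag, 1.73 to 15.5 in BALB, 4.60 to 28.4 in SEAGN and 1.13 to 15.8 in the AKR-named table. In PT the leading members per kilobase were Hoxa7, Hoxa5 and Hoxb4 in Her2, Hoxb4, Hoxb2 and Hoxb3 in C3Tag, Hoxb3, Hoxb2 and Hoxa7 in BALB, Hoxb4, Hoxb3 and Hoxb2 in SEAGN, and Hoxb7, Hoxb4 and Hoxb2 in the AKR-named table. Hoxb4, Hoxb2 and Hoxb3 thus recur near the top of most tables, and Hoxa7 led in Her2 alone.

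The share of Hoxa5 in the summed Hox level per kilobase was larger in Lung met than in PT in each of its 4 tables. It went from 20.8% to 30.1% in Her2, from 5.61% to 12.7% in C3Tag, from 11.5% to 30.6% in SEAGN and from 15.5% to 47.6% in the AKR-named table. By this share Hoxa5 ranked 1 of 10 in Lung met of Her2, 5 of 12 in C3Tag, 1 of 8 in SEAGN and 1 of 8 in the AKR-named table. In PT its rank was 2, 7, 4 and 4 in the same order. The Hoxa7 share in Her2 went the other way, from 22.2% to 13.9%, and that of Hoxb7 in the AKR-named table from 19.5% to 5.22%. Hoxb4 held 28.7% in PT and 27.7% in Lung met of SEAGN, close to the same share.

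**Figure D4:**
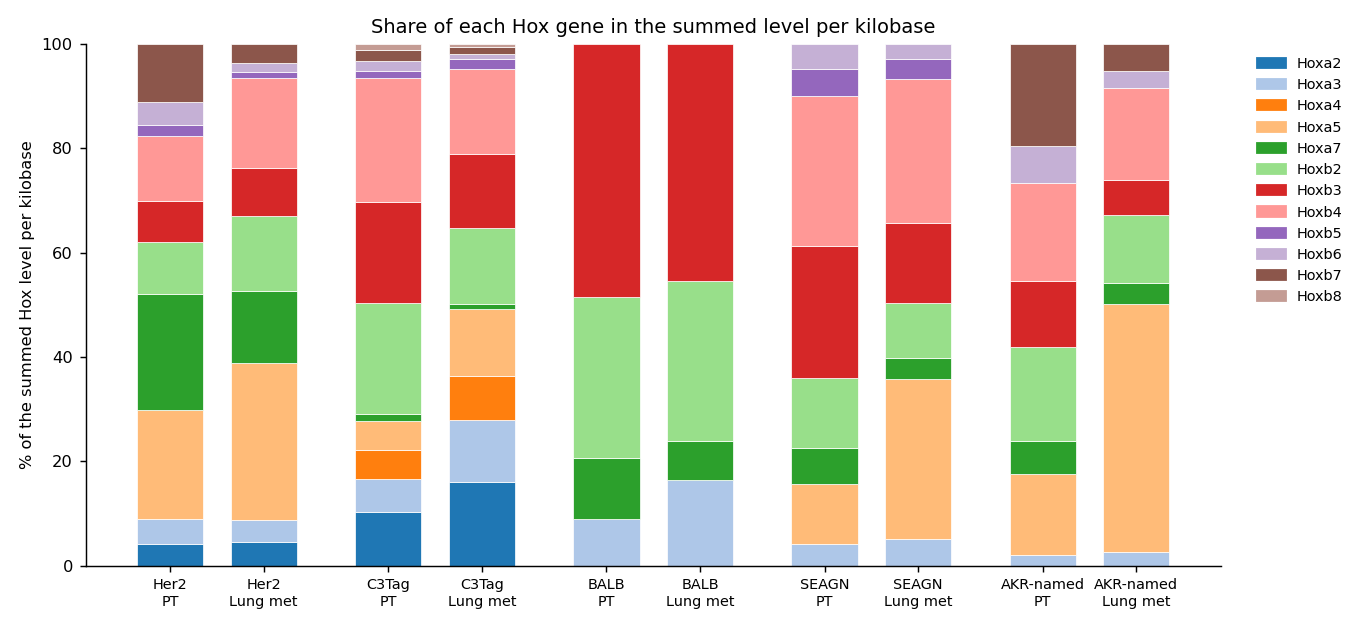
Share of each Hox gene in the summed Hox level per kilobase (vertical axis, percent), as stacked bars for PT and Lung met of each table, over the members with means in that table only. The light orange segment of Hoxa5 is larger in Lung met than in PT in all 4 tables that hold it, up to 47.6% in the AKR-named table.

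The genes of the PBX, MEIS and PREP (Pknox) proteins, with which Hox proteins bind DNA, had list medians between -0.02 and 0.34. Medians of the Hox members ran from -0.52 in SEAGN to 0.95 under the AKR name. Whether the cofactors followed the members was not tested. The 8 cofactors with means in Her2 had a median log2 ratio of 0.34 with 1 at least 2-fold higher, the 9 in C3Tag 0.06 with 2, the 8 in BALB -0.02 with 1, the 8 in SEAGN 0.05 with 0, and the 8 in the AKR-named table a median of 0.17 with 1. Of all genes, 2.38% were that much higher in Her2, 7.42% in C3Tag, 2.26% in BALB, 2.86% in SEAGN and 7.31% under the AKR name. Only SEAGN had a cofactor at least 2-fold lower, Meis1, from 690.4 in PT to 121 in Lung met. Meis2 was at least 2-fold higher in 3 of its 4 tables, from 12.1 to 48.9 in Her2, 73.0 to 373 in C3Tag and 25.0 to 57.5 in BALB, and had 30.4 in PT and 41.7 in Lung met in SEAGN. Meis2 was thus the cofactor with the most 2-fold changes.

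Of the 23 Polycomb and Trithorax genes, which silence Hox genes or keep them active and of which 22 had means in BALB, 0 passed the 2-fold line in any of the 5 tables, with median log2 ratios from -0.20 in the AKR-named table to 0.03 in Her2. Of all genes, at most 7.42% (C3Tag) were at least 2-fold higher and at most 3.22% (SEAGN) lower. At such shares few of 23 genes would pass the line, so their 0 is near the background. The share of all genes at least 2-fold higher ran from 2.26% in BALB to 7.42% in C3Tag. Beside it, retinoid genes at least 2-fold higher numbered 1 of 8 in Her2 and 2 of 8 in C3Tag. They numbered 2 of 9 in BALB, 2 of 9 in SEAGN and 3 of 9 under the AKR name. Aldh1a1, which makes retinoic acid from retinaldehyde, was among them in all 5 tables, with log2 ratios from 2.22 in BALB to 5.24 in C3Tag. Its mean went from 67.1 in PT to 756 in Lung met in Her2 and from 9.57 to 166 in SEAGN. The retinoic acid receptor Rarb, which retinoic acid itself induces, had log2 ratios from -0.03 in BALB to 0.67 in C3Tag. Cyp26b1, which degrades retinoic acid, was at least 2-fold lower in Her2, from 71.6 in PT to 32.8 in Lung met, and at least 2-fold higher under the AKR name, from 42.5 to 197, with log2 ratios of 0.85 in BALB, 0.44 in C3Tag and -0.13 in SEAGN. Cyp26a1, of the same family, was at least 2-fold lower under the AKR name, from 49.8 to 23.3, and had log2 ratios of 0.53 in BALB and 0.76 in SEAGN.

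Markers of lung and stroma moved with the tissue in the same tables. Of 8 alveolar epithelial genes 5 had means, and all 5 (Ager, Hopx, Lamp3, Rtkn2 and Sftpd) were at least 2-fold higher in Lung met in every table, with summed means of 1399 in PT and 6048 in Lung met in Her2, 279 and 15346 in C3Tag, 39.7 and 908 in BALB, 42.0 and 1756 in SEAGN, and 713 and 25343 in the AKR-named table. Of 7 transcription factors of lung mesenchyme, 4 had means in each table and 2 or 3 of them were at least 2-fold higher, with summed means of 72.4 in PT and 244 in Lung met in Her2, 524 and 1397 in C3Tag, 66.5 and 293 in BALB, 92.3 and 260.1 in SEAGN, and 97.4 and 690.2 in the AKR-named table. Foxf1 was at least 2-fold higher in 4 of 4 tables, Tbx2 in 5 of 5 and Tbx3 in 3 of 5. Of 5 endothelial markers, Vwf was at least 2-fold higher in 5 of 5 tables and Tek in 3 of 5. The summed means of these 5 markers were 2811 and 4721 in Her2, 2437 and 7182 in C3Tag, 828 and 1341 in BALB, 934 and 1636 in SEAGN, and 1981 and 6901 in the AKR-named table. The summed markers of all 3 lists were thus higher in Lung met in all 5 tables. Of all genes, 2.26% in BALB to 7.42% in C3Tag were at least 2-fold higher.

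Fibroblast markers went the other way, with 5 of 6 at least 2-fold lower in Her2, 2 of 6 in C3Tag, 4 of 6 in BALB, 5 of 6 in SEAGN and 5 of 6 in the AKR-named table. Of all genes, 1.43% were that much lower in Her2, 1.7% in C3Tag, 2.4% in BALB, 3.22% in SEAGN and 1.73% under the AKR name. Summed means of the fibroblast markers were 11175 in PT and 5104 in Lung met in Her2, and 26560 and 23355 in C3Tag. They were 8875 and 2798 in BALB, 12209 and 2344 in SEAGN, and 14587 and 5697 in the AKR-named table. Lum and Thy1 were at least 2-fold lower in 5 of 5 tables, Col1a1 and Col1a2 in 4 of 5 and Dcn in 3 of 5. Pdgfra alone of the 6 was above 0 in every table, by 0.44 to 0.94. Luminal mammary markers, some of which lung epithelium also expresses, were listed for all models, though the study uses C3Tag for a basal-like subtype. Among them, Krt8 had 15220 in PT and 14989 in Lung met in Her2, and 2141 and 2481 in SEAGN. The milk protein gene Csn2 of the same list was at least 2-fold higher in Lung met in these same models, from 56712 to 156724 in Her2 and from 92.2 to 504 in SEAGN. The median log2 ratio of the luminal list ran from -0.19 in C3Tag to 0.25 in SEAGN. In C3Tag its genes went both ways, with log2 ratios of 0.64 for Krt8, 0.23 for Krt18, -0.68 for Epcam and -0.61 for Elf5. The part of these other cells in the Hox ratios was not tested.

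**Figure D5:**
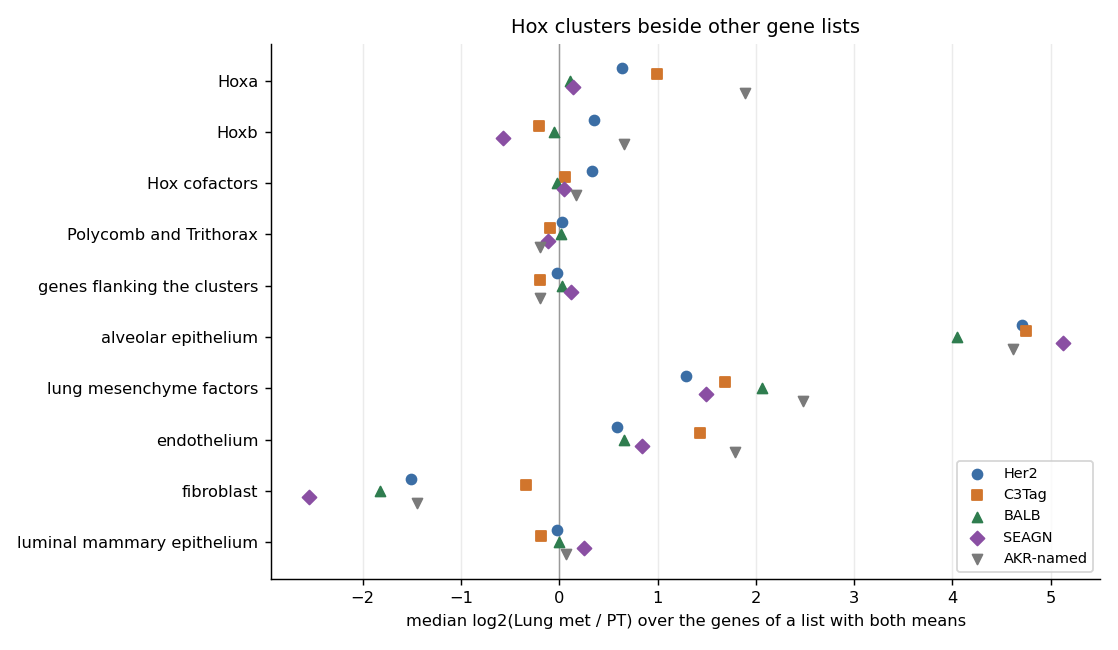
Median log2 ratio of Lung met over PT for the Hoxa and Hoxb members, related gene lists and cell type markers (rows), with a symbol for each of the 5 tables and a line at 0. Hoxa medians lie between 0.11 and 1.88, Hoxb medians between -0.57 and 0.66, alveolar markers above 4 in every table, and fibroblast markers below 0 in every table.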

How the data were processed

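PT and Lung met were compared within each model. Reads were aligned, counted per gene and normalized by the authors in Partek Flow, by a normalization that is not given in the sources used here. They deposited 1 least-squares mean per gene and tissue, used here as a signal with no SD or n. The authors made the PyMT-F1 means with DESeq2 and those of the driver models by Gene Specific Analysis. The builds named are mm9 and mm10 in the methods and mm39, with STAR 2.7.8a, in the submitters' processing notes, and BALB and SEAGN genes carry BALB/cJ identifiers. The labels name a stranded total RNA kit with ribosomal RNA depletion and the methods an mRNA kit. The deposited p-values, FDR, ratios and fold changes are the authors' own comparisons and were not used. The Myc table holds only such columns beside the symbols.

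From the means, log2(Lung met / PT) was computed without a pseudocount, with percentiles among all genes of a table and levels per kilobase of merged GENCODE M21 exons (GRCm38). BALB and SEAGN lengths were matched by symbol, for 82.5% of genes. The means are not scaled by length, as their Spearman's rho with exon length was 0.35 to 0.51 over the genes of a PT column. Upstream sequences are from RefSeq (GRCm38.p6). By rule the text names members past 2-fold one way in 3 or more tables, the 3 highest and 3 lowest ratios per table among members with a mean of at least 10, the 3 highest PT levels per kilobase per table, and genes of other lists past 2-fold in 3 or more tables. Other genes were named after their values were seen. The members and lists were chosen with earlier results of these data known. A member and a retinoid gene are not reported here. The alternatives were a pseudocount, a minimum mean, centring, a 1.5-fold line and levels per kilobase. The steps were tested on simulated data (Python 3.11.15, numpy 2.4.6, pandas 2.3.3, scipy 1.17.1, matplotlib 3.10.9).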

Additional observations from a re-analysis of the deposited data

How the results depend on the processing

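No test, interval or leave-one-out value could be had from means of tissues, and the precision of every ratio is unknown. No paired analysis was possible because the values are means over the samples of a tissue. With a pseudocount of 1, the medians over all members, clusters and classes and the counts past 2-fold moved by less than 0.25 (log2) or 1.5 times, as did the medians over all members and the counts after centring on the median of all genes. Cluster and class medians were not centred.

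With members whose mean over both tissues was at least 10, the median log2 ratio was 1.01 over the Hoxb members and 0.57 over the central members of Her2, 0.89 over the Hoxa member left in BALB, -0.21 over 5 members in SEAGN with 0.70 for Hoxa, and 1.14 over the central members of the AKR-named table. The median of the central members thus turned from -0.08 in Her2 and, in SEAGN, from -0.57 to 0.52 with only Hoxa5 and Hoxb4 left of 5. Both turns follow from fewer genes, and in Her2 the Hoxb median then passed that of Hoxa, and in SEAGN and the AKR-named table the central median that of the anterior members. The other medians with that filter moved by less than 0.25.

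At 1.5-fold in place of 2-fold, 5 members were higher and 2 lower in Her2, 5 higher and 2 lower in C3Tag, 1 higher and 1 lower in BALB, and 3 lower in SEAGN. The count of higher members in SEAGN stayed at 1. Under the AKR name, 6 of 8 members were higher at 1.5-fold, against 4 at 2-fold, and 0 were lower at either line. The share of all genes past 1.5-fold was not computed. Whether these 1.5-fold counts differ from the background of each model was therefore not tested. Of 84 percentiles of a level, 8 moved by 10 points or more when taken per kilobase.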

Other observations

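Of the non-coding genes of the Hox clusters, Hotairm1, of the Hoxa cluster, had means of 7.93 in PT and 31.0 in Lung met in C3Tag and of 3.17 and 9.95 in the AKR-named table, log2 ratios of 1.97 and 1.65. Hoxb3os, antisense to Hoxb2 and Hoxb3, went from 200.5 in PT to 38.5 in Lung met in C3Tag, a log2 ratio of -2.38, while Hoxb3 itself stood at -0.09 there, and from 26.6 to 36.1 in the AKR-named table. Hoxaas3, antisense in the Hoxa cluster, had log2 ratios of 0.69 in Her2 and 0.65 in C3Tag, and Hoxaas2 -0.48 in SEAGN. These genes were named after their values were seen, and the other listed non-coding genes were not analysed here.

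Genes that flank the Hoxa, Hoxb, Hoxc and Hoxd clusters did not pass 2-fold in any table, with 7 to 9 of 13 measured and medians from -0.20 in the AKR-named table to 0.12 in SEAGN. Of all genes, at most 7.42% (C3Tag) were at least 2-fold higher and at most 3.22% (SEAGN) lower, so 0 of so few is near the background. Most of the flanking genes measured, such as Cbx5, lie by Hoxc or Hoxd, which were not analysed here. By Hoxa, Skap2 and Hibadh had means. By Hoxb only Skap1 had means, with log2 ratios of 0.59 in Her2 and -0.42 in C3Tag, so the list says little on the surroundings of Hoxb. Skeletal muscle genes were at least 2-fold lower in Lung met in Her2 (2 of 2), C3Tag (2 of 2), BALB (1 of 1) and SEAGN (1 of 1), and under the AKR name 2 of 3 were at least 2-fold higher. Acta1 of this list passed 2-fold in all 5 tables, as lower in 4 and as higher in 1. The means under the AKR name were low, 7.60 in PT and 25.1 in Lung met for Acta1 and 1.59 and 5.76 for Tnnt3. In C3Tag, Acta1 had 824 in PT and 32.6 in Lung met. The adipocyte gene Fabp4 was lower in Lung met in its 4 tables, by log2 ratios of -0.38 to -2.73. Myoepithelial genes had medians from -0.35 in the AKR-named table to 0.80 in SEAGN.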
